A study of Rattus norvegicus with 6 samples.

Results

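The genes described here are targets of the hypoxia-inducible factors (HIF) and the glucose transporter gene Slc2a1: Egln1, Egln3, Kdm3a, Slc2a1, Ldha, Pdk1, Bnip3, Ddit4, Vegfa and Adm. They were listed by name, by a rule that uses no measured value, though earlier results of these data were known when they were chosen. Their probes were found by matching the RefSeq transcript given for each array probe to the current rat gene symbol. Of the 10 genes, 9 were found, with 19 of the 61563 probes kept on the array. No probe was matched to Egln1, which is not analysed here. The 19 probes were well above background on all 6 arrays, none was saturated, and all of them passed the filter on dim probes. RNA of the renal cortex was read on 6 Agilent arrays with 1 colour. The animals were male Sprague-Dawley rats (Crl:CD(SD)) that were 5 weeks old when bought. Corn oil alone, the vehicle, went to the 3 control rats over 4 weeks. The 3 rats of the other group received 2,2-bis(bromomethyl)-1,3-propanediol (BBMP), which is a diol carrying bromine, with a daily dose of 1000 mg/kg over the same 4 weeks. The series' design calls the 3 samples of each group biological replicates. The comparison asks what the compound changed in the cortex.

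When oxygen is sufficient, prolyl hydroxylases of the EGLN family hydroxylate the alpha subunits of HIF, and the von Hippel-Lindau protein then marks them for degradation. When oxygen falls, the alpha subunits persist, pair with ARNT and switch on genes for glucose uptake, glycolysis, blood vessel growth and the removal of mitochondria. In the kidney these genes also have basal activity that differs along the nephron, since oxygen falls from cortex to medulla. In a whole piece of cortex, fewer cells of a type and less RNA per cell cannot be told apart.

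Of the 9 genes, 3 were lower and 0 higher in the BBMP group when each gene was represented by its brightest probe. The 3 were Slc2a1, the ubiquitous glucose transporter, at 1.37-fold lower, Kdm3a, a histone H3 lysine demethylase, at 1.21-fold lower, and Vegfa, the main growth factor of blood vessels, at 1.20-fold lower. Of all 31582 genes or sequences tested, 7.68% were called lower and 17.9% called in either direction, so the 3 of 9 are read against a background in which many genes changed (10.2% were called higher). A gene or probe was called where the p-value of limma, adjusted over all genes or over all probes by the Benjamini-Hochberg method, was under 0.05. Without adjustment, 2 genes had a p under 0.05 in the higher direction (Ldha and Pdk1) and the same 3 in the lower direction, against 36.6% of all genes in either direction. The median log2 difference of the 9 genes was -0.15, and that of all genes tested was 0.049.

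The 9 genes did not behave as a block, and probes of a single gene did not always move together. Counting probes, 3 of 19 were called lower and 2 higher, against 7.46% and 10.3% of all 42657 probes tested (17.8% in either direction). The 2 called higher are both Vegfa probes, although the brightest Vegfa probe was called lower. Control and BBMP rats were fully apart in 10 of the 19 probes, against 43.4% of all probes tested. At the level of genes they were fully apart in 5 of 9, against 43.6% of all genes tested: 2 of the 5 were higher (25% of all genes) and 3 lower (18.6%).

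**Figure D1:**
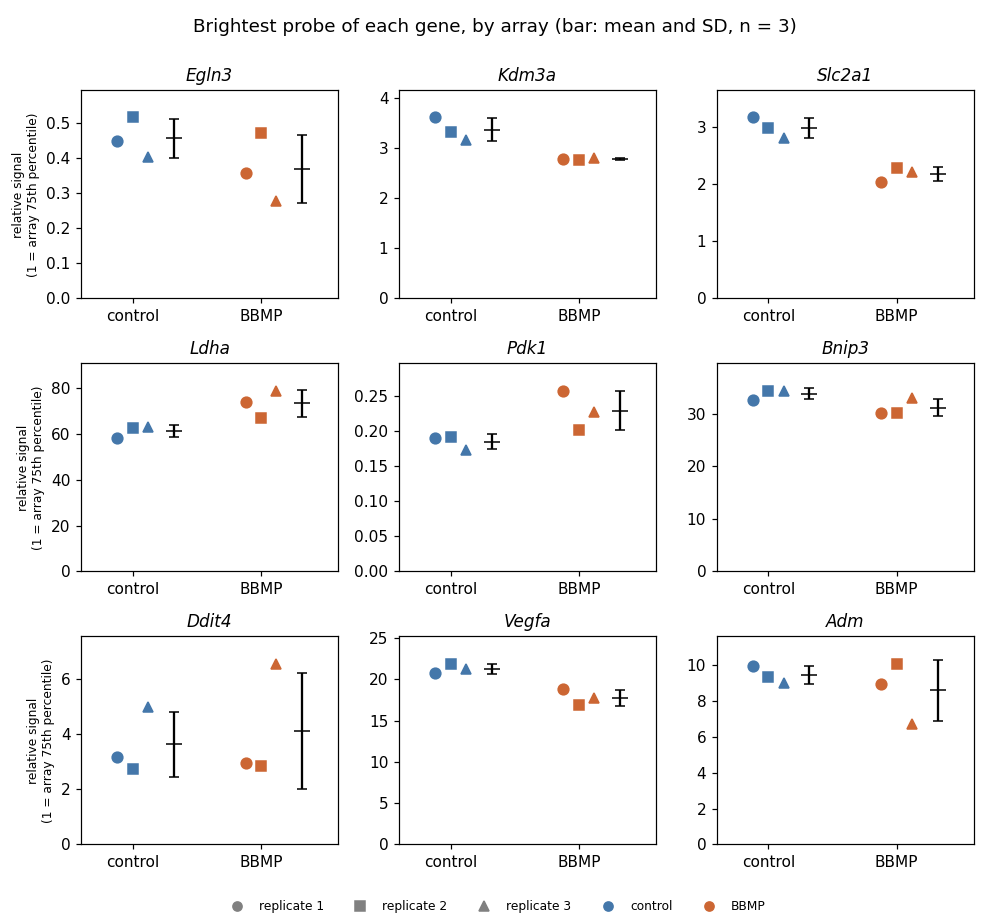
Relative signal of the brightest probe of each of the 9 genes (vertical axis, linear, 1 is the 75th percentile of the array) for the 3 control and 3 BBMP rats, each point an array and each bar the mean with its SD. The control and BBMP points are apart for Kdm3a, Slc2a1, Ldha, Pdk1 and Vegfa and overlap for the other 4 genes.

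The share of probes well above background was 67.2% to 68.6% for control rats and 70.5% to 72.7% for BBMP rats. The 75th percentile of the processed signal was 942.7 to 949.7 for control rats and 1244 to 1259 for BBMP rats. Across genes, which are not independent replicates, the median correlation was 0.993 within groups and 0.989 between them. The control group shares slide 1 and scan 1, and the BBMP group slide 2 and scan 2. Treatment therefore cannot be told apart from slide or scan. The 13 proximal tubule markers listed, the defining genes of cortex, were all well above background on all 6 arrays, and 0 of them were called by limma. Of 8 markers of the principal cells of the collecting duct, 3 fell (Aqp4, Elf5 and Hsd11b2; 7.68% of all genes were called lower) and 0 rose. The others were mixed, with Aqp2 at a log2 difference of 0.011, Scnn1b at 0.078, Avpr2 at 0.23, Aqp3 at -0.21 and Scnn1g at -0.12. Of the 8, 5 had a negative log2 difference, and the median was -0.16, against 0.049 for all genes tested. The 2 other probes of Aqp4 differed from each other in direction. The summed relative signal of the 8 was 189.5 to 204.7 in control and 167.4 to 183.7 in BBMP rats. Of 5 adrenal markers tested, 2 were called higher (Th and Cyp21a1; 10.2% of all genes were called higher), and Cyp11b2 stood at -0.29. Most of their summed signal was Th, and the sum was 2.914 to 3.277 in control and 4.002 to 4.334 in BBMP rats; Cyp11b1, Star, Dbh and Chga were not tested, being dim, and with the mean of all its probes the log2 difference of Th was -0.049. The part of either cell type in the results below was not tested.

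HIF binds the core letters ACGTG or GCGTG, so the 250 bases before the RefSeq start of each gene were searched for them on both strands (on the other strand they read CACGT or CACGC, and the palindrome CACGTG counts on both and is also an E-box). At least 1 match was found in 7 of the 12 promoters listed for the 10 genes, 1 each for Egln1, Kdm3a, Slc2a1, Ldha, Pdk1, Bnip3 and Ddit4. Of all 33469 promoters in the RefSeq table of the GRCr8 assembly, 36.7% had a match in a window of that length, and 63.0% of those with at least 60% G and C. The 7 windows with a match hold 66.4% to 85.2% G and C. The windows of Slc2a1 and Kdm3a, which fell, of Ldha and Bnip3, which were not called, and of Vegfa, which has none of these letters in either of its 2 listed promoters, are shown with the matches in capitals:

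Slc2a1 (chr5:138002272-138002521, plus strand): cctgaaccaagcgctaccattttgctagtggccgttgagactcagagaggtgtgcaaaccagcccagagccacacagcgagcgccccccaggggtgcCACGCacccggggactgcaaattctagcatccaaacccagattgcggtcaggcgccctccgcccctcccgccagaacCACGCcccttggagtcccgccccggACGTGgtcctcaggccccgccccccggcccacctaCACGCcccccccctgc

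Kdm3a (chr4:105233112-105233361, minus strand): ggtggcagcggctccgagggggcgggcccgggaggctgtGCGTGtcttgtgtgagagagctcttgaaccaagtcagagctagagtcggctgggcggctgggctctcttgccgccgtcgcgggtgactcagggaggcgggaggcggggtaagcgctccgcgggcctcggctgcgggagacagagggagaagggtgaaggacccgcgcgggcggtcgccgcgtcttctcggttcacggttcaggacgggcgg

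Ldha (chr1:106507842-106508091, plus strand): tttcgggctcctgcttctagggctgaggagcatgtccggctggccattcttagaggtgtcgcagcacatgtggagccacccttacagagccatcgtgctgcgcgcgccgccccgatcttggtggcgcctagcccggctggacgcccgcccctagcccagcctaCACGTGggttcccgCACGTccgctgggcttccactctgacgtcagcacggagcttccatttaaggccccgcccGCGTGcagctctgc

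Bnip3 (chr1:203154963-203155212, minus strand): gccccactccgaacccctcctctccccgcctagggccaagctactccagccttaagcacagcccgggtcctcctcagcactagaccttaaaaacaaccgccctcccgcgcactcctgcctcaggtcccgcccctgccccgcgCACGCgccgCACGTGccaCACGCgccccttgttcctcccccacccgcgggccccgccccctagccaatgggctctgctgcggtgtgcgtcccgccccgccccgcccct

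Vegfa (chr9:22452604-22452853, plus strand): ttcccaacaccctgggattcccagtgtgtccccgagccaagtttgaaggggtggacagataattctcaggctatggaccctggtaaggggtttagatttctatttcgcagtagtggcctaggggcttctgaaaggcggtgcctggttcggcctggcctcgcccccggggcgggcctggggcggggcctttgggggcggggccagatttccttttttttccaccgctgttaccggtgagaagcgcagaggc

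Slc2a1 and Bnip3 have 4 matches each, as Ldha does, and Kdm3a has 1, while the second promoter listed for Kdm3a (chr4:105233371-105233620) has 0. In Ldha and Bnip3, 2 of the 4 matches are the strands of 1 palindrome CACGTG. The number of matches did not order the genes by their response: with 4 matches each, Slc2a1 fell, Ldha stood above control without passing the threshold, and Bnip3 did not pass, with groups that overlapped. A match is a description of the letters only, and the absence of one says only that these letters are not in this window.

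Egln3 encodes one of the 3 HIF prolyl hydroxylases and is itself a HIF target. Its relative signal was 0.450, 0.516 and 0.405 in control rats 1, 2 and 3 and 0.359, 0.472 and 0.277 in BBMP rats 1, 2 and 3. BBMP rat 2 lay inside the control range and the other two below it. The log2 difference was -0.33 ± 0.21 (SE), which did not pass (limma adjusted p = 0.297), with a 95% interval of -0.85 to 0.18. It was -0.14 without BBMP replicate 3 and -0.53 without BBMP replicate 2.

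Among the genes that sense oxygen and form HIF, a separate list, 3 of 14 tested were higher and 1 lower (28.6% called, against 17.9% of all genes), with a median log2 difference of 0.083. The gene that fell was Hif1a, the alpha subunit of HIF itself. Its brightest probe read 7.62, 8.004 and 7.78 in control rats 1 to 3 and 5.18, 5.05 and 5.03 in BBMP rats 1 to 3. The groups were far apart and each was tight. It was 1.53-fold lower (log2 difference -0.62 ± 0.055, SE; limma adjusted p = 0.0108). The other 2 probes of Hif1a were at log2 differences of -0.95 and -1.095, each with an adjusted p of 0.0113 over all probes, so all 3 probes had 1 direction. Without BBMP replicate 2 the adjusted p of Hif1a was 0.0525, and without any other single array it was 0.0281 to 0.0485.

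Epas1, the other main HIF alpha subunit, which in kidney is found chiefly in endothelial and interstitial cells, went the other way. It read 0.926, 0.908 and 0.902 in control rats and 1.175, 1.103 and 1.111 in BBMP rats, without overlap, a 1.24-fold rise (limma adjusted p = 0.0232). Egln2, a hydroxylase that is not usually induced by hypoxia, rose 1.23-fold (adjusted p = 0.0493), from 1.89, 2.01 and 2.18 to 2.45, 2.40 and 2.58. Arnt, the shared partner of the alpha subunits, was called higher at 1.35-fold (adjusted p = 0.0475) from a dim probe, at 0.0396, 0.0389 and 0.0372 against 0.0542, 0.0447 and 0.0585. With normexp background correction, which also started from the median signal, the log2 difference of Arnt was -0.070. Its direction therefore depended on this processing, and which step moved it was not tested. Of 11 endothelial markers, 1 rose (Cdh5; 10.2% of all genes were called higher) and 0 fell. Of the 11, 8 had a positive log2 difference, with a median of 0.22, against 0.049 for all genes tested. Their summed relative signal, which weighs bright markers most, overlapped between groups, at 82.89 to 99.02 in control and 83.21 to 96.85 in BBMP rats.

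**Figure D2:**
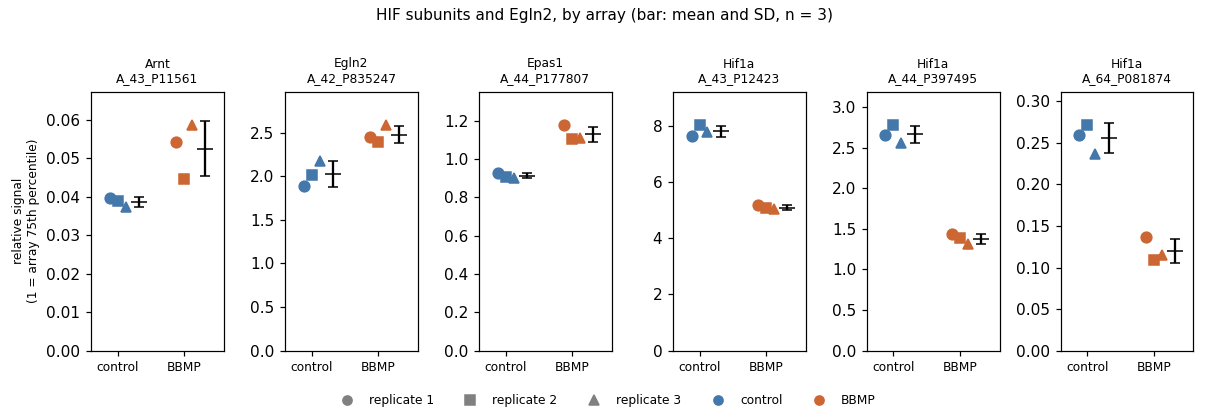
Relative signal (linear, 1 is the 75th percentile of the array) of the probes of Arnt, Egln2, Epas1 and Hif1a in 3 control and 3 BBMP rats, with the mean and SD of each group. All 3 Hif1a probes are lower in every BBMP rat than in any control rat, while Epas1, Egln2 and the dim Arnt probe are higher (Arnt not so with normexp, at -0.070).

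Kdm3a encodes a JmjC demethylase that removes methyl groups from lysine 9 of histone H3 and is induced by HIF. Its brighter probe read 3.61, 3.33 and 3.15 in control rats and 2.78, 2.77 and 2.80 in BBMP rats. The BBMP values lay within a very narrow range below every control value. The fall was 1.21-fold (log2 difference -0.27 ± 0.070, SE; limma adjusted p = 0.0477). The dimmer probe also had groups that did not overlap, at 0.605, 0.535 and 0.517 against 0.493, 0.449 and 0.478, with a log2 difference of -0.22 ± 0.084 (SE) that did not pass (adjusted p = 0.117 over all probes). The call was lost with quantile normalization, with cyclic loess and with the percentile taken over detected probes, where the adjusted p was 0.0510 to 0.0597. With normexp the brighter probe was at -0.13 and not called, while the dimmer probe was at -0.29 and called lower (limma adjusted p = 0.0252 over all probes). For the brighter probe the adjusted p was 0.0501 without control replicate 3, and 0.106 to 0.122 without any other single array.

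Of 11 other JmjC demethylase genes tested, 0 were called higher and 2 lower (18.2% called, against 17.9% of all genes). The 2 were Kdm2a at 1.25-fold (limma adjusted p = 0.0228) and Kdm5b at 1.24-fold (adjusted p = 0.0255). Probes of these genes disagreed: all 3 other probes of Kdm2a and 1 of the other 2 of Kdm5b had the opposite sign, and with the mean of all probes their log2 differences were 0.090 and 0.046.

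Slc2a1 encodes GLUT1, which carries glucose across the plasma membrane of most cells and, in the nephron, across the basolateral membrane. It had 1 probe. The probe read 3.16, 2.98 and 2.80 in control rats 1 to 3 and 2.04, 2.27 and 2.21 in BBMP rats 1 to 3. Every BBMP rat lay below every control rat. The fall was 1.37-fold, with a log2 difference of -0.46 ± 0.077 (SE; limma adjusted p = 0.0194) and a 95% interval of -0.65 to -0.27. The 9 genes held no larger called difference. Slc2a1 passed with every background correction, scaling, filter and moderation tried (adjusted p of 0.0082 to 0.0440) and without control replicate 3 (0.0353). Without any other single array the adjusted p was 0.0558 to 0.0629.

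On the list of other glucose carriers 14 genes were tested, among them Txnip (log2 difference 0.027), which is not itself a carrier. By the brightest probe, limma called 0 of the 14 in either direction (0%, against 17.9% of all genes). A dimmer probe of Slc5a1 was called higher, at a log2 difference of 0.75 (limma adjusted p = 0.0203 over all probes), while its brightest probe stood at 0.24. Of the 14, 12 had a positive log2 difference, with a median of 0.28, against 0.049 for all genes tested. All but Slc2a3 were above background on all 6 arrays. The dim probe of Slc2a3 was so on 2 control and 3 BBMP arrays, and passed the filter through the BBMP group alone. With the smallest unadjusted p, Slc2a8, an intracellular carrier, stood at a log2 difference of 0.29 ± 0.10 (SE; adjusted p = 0.1025) and Slc5a11, a sodium-coupled carrier, at 0.31 ± 0.13 (SE; adjusted p = 0.154). Slc2a2, the basolateral carrier GLUT2 of the proximal tubule, was at 0.065 ± 0.18 (SE) and Slc5a2, the apical carrier SGLT2, at -0.17 ± 0.10 (SE). Their other probes had both signs, at -0.17 and 0.33 for Slc2a2 and at 0.12 and -0.27 for Slc5a2. Slc2a5, the fructose carrier GLUT5, had a difference of -0.51 ± 0.45 (SE; adjusted p = 0.453), with widely spread control rats, at 6.38, 1.87 and 4.14 against 2.81, 2.90 and 2.09. The difference in response between Slc2a1 and these carriers was not tested.

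Ldha encodes the lactate dehydrogenase subunit that turns pyruvate into lactate. Its brighter probe read 58.3, 62.3 and 63.0 in control rats and 73.7, 67.0 and 78.8 in BBMP rats. All 3 BBMP rats lay above the control rats. The log2 difference of 0.26 ± 0.081 (SE) did not pass (limma adjusted p = 0.0792), with a 95% interval of 0.056 to 0.46. The second probe was at 0.22 ± 0.096 (SE; adjusted p = 0.165 over all probes), with BBMP rat 2 inside the control range. With normexp and with trend and robust moderation Ldha was called higher, at adjusted p of 0.0245 and 0.0378.

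Pdk1 encodes a kinase that switches off pyruvate dehydrogenase and so keeps pyruvate from the mitochondria. Its single probe read 0.190, 0.192 and 0.172 in control rats and 0.258, 0.202 and 0.227 in BBMP rats. The groups did not overlap, but the gap between BBMP rat 2 and the highest control was small. The log2 difference of 0.30 ± 0.11 (SE) did not pass (limma adjusted p = 0.101). With normexp on the median signal it was 0.0066, so the size of this difference depended on that processing.

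Of the 24 glycolysis genes tested, 3 rose and 2 fell (20.8% called, against 17.9% of all genes), with a median log2 difference of 0.096. Those that rose were Eno2, the neuronal enolase, at 1.495-fold (limma adjusted p = 0.0241), Aldoc, an aldolase, at 1.44-fold (0.0169), and Pkm, pyruvate kinase, at 1.30-fold (0.0224), the last named after its values were seen. Those that fell were Slc16a7, a lactate and pyruvate carrier, at 1.5-fold (0.0116), and Pfkfb2, which sets the level of an activator of glycolysis, at 1.40-fold (0.0128). Of the 2 other probes of Aldoc, 1 was flat, at a log2 difference of -0.013. The remaining probe was well above background on 0 control and 3 BBMP arrays, so it passed the filter through the BBMP group alone. The other probe of Pfkfb2 had the opposite sign. Of 11 genes of the pyruvate dehydrogenase complex and its kinases, limma called 0, against 17.9% of all genes. Mpc1, a subunit of the mitochondrial pyruvate carrier, was at -0.27 ± 0.099 (SE; adjusted p = 0.112) and Pdha1 at -0.16 ± 0.062 (SE; adjusted p = 0.134).

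Bnip3 encodes a protein of the outer mitochondrial membrane that targets mitochondria for autophagy. Its brighter probe read 32.7, 34.5 and 34.4 in control rats and 30.2, 30.2 and 33.0 in BBMP rats, with BBMP rat 3 inside the control range. The log2 difference was -0.12 ± 0.065 (SE; limma adjusted p = 0.235; 95% interval -0.28 to 0.040). The second probe was at 0.012 ± 0.084 (SE; 95% interval -0.20 to 0.22). Among 15 other mitophagy genes, 3 rose and 1 fell (26.7% called, against 17.9% of all genes). Those that rose were Fkbp8 at 1.42-fold (adjusted p = 0.0166), Sqstm1, an autophagy receptor, at 1.33-fold (0.0219), with its 4 other probes of the same sign, and Bnip1 at 1.28-fold (0.0314), while Becn1 fell 1.20-fold (0.0424).

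Ddit4 encodes REDD1, an inhibitor of the growth kinase complex TORC1 that is induced by hypoxia and by other stresses, glucocorticoids and fasting among them. Its brightest probe read 3.18, 2.74 and 4.97 in control rats 1, 2 and 3 and 2.96, 2.86 and 6.56 in BBMP rats 1, 2 and 3. Replicate 3 was far above the other two in both groups, and the other 4 rats were alike. The remaining 2 probes gave the same picture, at 0.268, 0.220, 0.424, 0.248, 0.234 and 0.658 for the second and 0.173, 0.126, 0.238, 0.158, 0.131 and 0.412 for the third, in the same order of rats. The spread of Ddit4 within groups was larger than that of 96.1% of all genes tested. The log2 difference between groups, 0.12 ± 0.39 (SE), did not pass (limma adjusted p = 0.852), with a 95% interval of -0.84 to 1.08 that neither bounds the change closely nor sets its sign. Without BBMP replicate 3 it was -0.27. Among 12 other regulators of TORC1, 2 rose, Sesn2 at 1.45-fold (adjusted p = 0.0332) and Tsc2 at 1.33-fold (0.0180), and 0 fell (16.7% called, against 17.9% of all genes).

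Vegfa encodes the secreted factor that keeps the endothelium of glomeruli and peritubular capillaries alive, made in the cortex by podocytes and tubule cells. It had 6 probes, 4 designed on 1 RefSeq transcript and 2 on another. The brightest probe, A_64_P099886, read 20.7, 21.9 and 21.2 in control rats and 18.8, 16.9 and 17.7 in BBMP rats. All BBMP rats were lower than all control rats. The fall was 1.20-fold (log2 difference -0.26 ± 0.066, SE; limma adjusted p = 0.0469).

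The 5 other Vegfa probes had the opposite sign. Probe A_64_P099893 read 1.84, 1.97 and 1.91 in control rats and 2.67, 2.47 and 2.44 in BBMP rats, a 1.33-fold rise (limma adjusted p = 0.0177 over all probes). Probe A_44_P300751 read 1.32, 1.27 and 1.28 in control rats and 1.74, 1.56 and 1.52 in BBMP rats, a 1.24-fold rise (adjusted p = 0.0398). Both sets of values were free of overlap, in the direction opposite to the brightest probe. Probes A_64_P099891 and A_43_P15572 also had no overlap, at log2 differences of 0.23 ± 0.092 and 0.20 ± 0.069 (SE), and did not pass (adjusted p = 0.129 and 0.0920). Probe A_64_P155983 overlapped, at 0.064 ± 0.12 (SE; adjusted p = 0.728).

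Dividing an array by a single factor cannot change the ratio of probes within it, though quantile normalization and cyclic loess can. The log2 signal of the brightest probe minus the mean of the 5 others was 3.25, 3.37 and 3.22 in control rats and 2.75, 2.76 and 2.81 in BBMP rats, a difference of -0.50. In an exact two-sided permutation test the p was 0.10, the smallest that 3 rats against 3 allow. The choice of this contrast followed the values, so it describes the disagreement and does not test it independently. Over the 6 arrays the 4 probes with higher signal and no overlap correlated with each other at 0.84 to 0.96 and with the brightest probe at -0.84 to -0.63, a description over points that share a group difference. With the mean of all 6 probes the log2 difference of Vegfa was 0.16 and not called (adjusted p = 0.157). Probes of both signs were common: they occurred in 34.7% of 6216 named genes with at least 2 tested probes and in 28 of the 42 (66.7%) with at least 6.

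**Figure D3:**
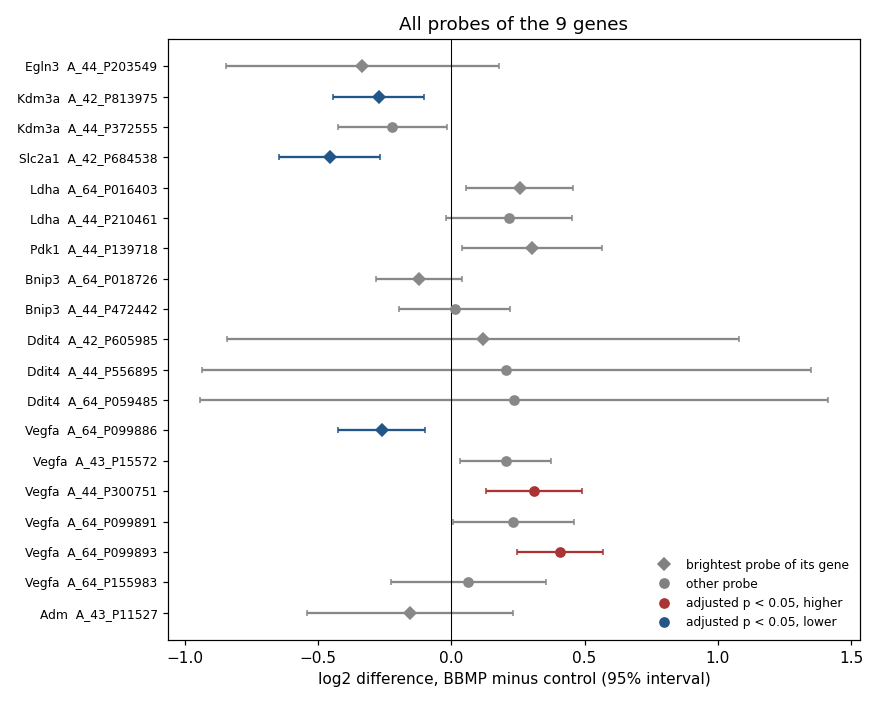
Log2 difference between BBMP and control rats (horizontal axis) with its 95% interval from limma for all 19 probes of the 9 genes; diamonds are the brightest probe of each gene, and colour marks an adjusted p under 0.05. The brightest Vegfa probe lies left of 0 and its 5 other probes right of it, while both Kdm3a probes lie left and both Ldha and all 3 Ddit4 probes right.

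**Figure D4:**
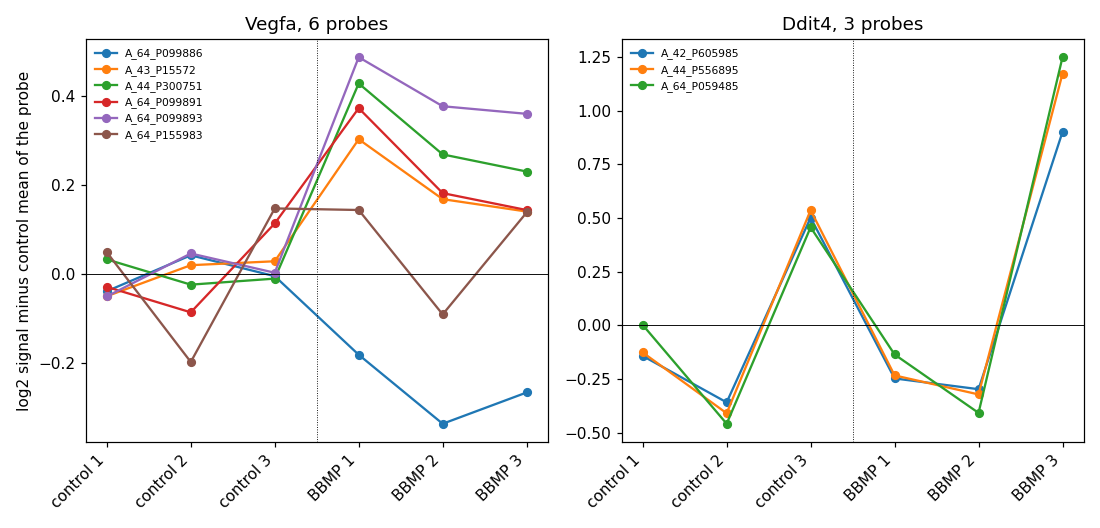
Log2 signal of each Vegfa probe (left) and each Ddit4 probe (right) on each array, minus that probe's mean over the control arrays; lines only join the points of a probe, since the arrays have no order. For Vegfa the brightest probe falls below 0 in all 3 BBMP rats while 4 others lie above all their control values, and for Ddit4 all 3 probes are high in replicate 3 of both groups.

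The call of the brightest Vegfa probe was lost with quantile normalization, with cyclic loess and with the percentile taken over detected probes, at adjusted p of 0.0514 to 0.0553, and without any single array (0.0758 to 0.124). The rise of probe A_64_P099893 held in each of those 3 normalizations (adjusted p of 0.0175 to 0.0177), with median scaling (0.0242) and with normexp (0.00603); without control replicate 3 its adjusted p was 0.0406, and without any other single array 0.0505 to 0.0601. Probe A_44_P300751 was not called without any single array (0.0697 to 0.106). Of 12 other VEGF and angiopoietin ligands and receptors, 0 rose and 1 fell (8.33% called, against 17.9% of all genes). It was Angpt1, a ligand that stabilises vessels, at 1.55-fold (limma adjusted p = 0.0238), from 0.950, 0.951 and 1.11 to 0.716, 0.670 and 0.560. Of the 12, 9 had a positive log2 difference and 3 a negative one, with a median of 0.13, against 0.049 for all genes tested. A dimmer probe of the receptor Flt1 and 1 of Tie1 were called higher, both at 0.61 (limma adjusted p of 0.033 and 0.034 over all probes). The brightest probes of these 2 genes were not called.

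Adm encodes adrenomedullin, a vasodilator peptide induced by HIF. Its probe read 9.96, 9.35 and 8.97 in control rats and 8.95, 10.1 and 6.71 in BBMP rats. BBMP rat 2 was the highest of all 6 and BBMP rat 3 the lowest, so the groups overlapped. The log2 difference of -0.15 ± 0.16 (SE) did not pass (limma adjusted p = 0.517; 95% interval -0.54 to 0.23), and without BBMP replicate 3 it was 0.012. BBMP rat 3 was also the lowest of the 6 for Egln3 and the highest for Ddit4. Of 9 related peptide and receptor genes, 2 rose and 0 fell (22.2% called, against 17.9% of all genes). The 2 were Calca, which encodes calcitonin and its related peptide, at 1.40-fold (adjusted p = 0.0134) and Crcp, named for a component of that peptide's receptor, at 1.34-fold (0.0158).

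Of 42 further HIF target genes tested, 3 rose and 4 fell (16.7% called), with a median log2 difference of 0.022. Car12, a carbonic anhydrase, rose 1.46-fold (limma adjusted p = 0.0200). Plod2, a collagen lysyl hydroxylase, fell 1.43-fold (0.0168), Rbpj, the DNA-binding partner of Notch, 1.40-fold (0.0162) and Mxi1, an antagonist of MYC, 1.39-fold (0.0375). The other probes of Car12 and Plod2 had the same sign, while 1 of 2 for Rbpj and 1 of 3 for Mxi1 had the opposite sign. Over all 10 related lists, which hold 160 distinct tested genes, 16 rose and 11 fell, or 16.9%, close to the 17.9% called among all genes. The split depended on the scaling: cyclic loess gave 14 and 14, median scaling 12 and 17, normexp 20 and 22.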

How the data were processed

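RNA of 6 renal cortex samples was labelled with Cy3, per the labels' protocols, and hybridised to 1-colour Agilent arrays designed on rn4. Agilent Feature Extraction 10.7.1.1 made the deposited files of each array, per the file headers (10.7 per the submitters' processing notes). They hold intensity on a linear scale, background-subtracted and detrended, per the file headers, and deposited flags with a score of 0 or 1. How the authors' deposited table, with 1 ratio per probe and array, was made is not stated. Each of its columns was closest to the processed signal of 1 scanner file of the same group over that array's 75th percentile (median absolute log2 gap 0.0036 to 0.0058, column medians 0.107 to 0.114, no centring, linear scale). That file was the one of another replicate of the group, so replicate numbers are uncertain and groups are not. Each scanner file was taken as the sample recorded for it.

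From 61657 non-control probes, 84 ERCC spike-in probes and 10 with an outlier flag were left out. Relative signal is the processed signal over the array's 75th percentile, and tests used its log2. Probes well above background on all 3 arrays of a group were tested (42657), and the brightest tested probe by mean signal stood for a gene (31582 genes or sequences). Names came from unversioned RefSeq accessions in a GRCr8 table, and promoter sequences from RefSeq on GRCr8. Tests used lmFit and eBayes of limma 3.58.1 (R 4.3.3), two-sided and without covariates, with Benjamini-Hochberg adjustment; the fit was tested on simulated data. The number of arrays, 3 per group, limits the precision.

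The genes and lists were chosen with earlier results of these data known. Named list genes were the called ones, up to the 4 with the largest change, or the 2 with the smallest p where none was called; cell type lists are given only where they bear on a result, and 1 such result is not reported here. Alternatives covered background correction, scaling, the authors' table, the filter, the probe of a gene, replicate and slide row blocks, moderation and leaving out each array. The planned normexp correction used the median signal. Plots were made with matplotlib 3.10.9 under Python 3.11.15.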

Additional observations from a re-analysis of the deposited data

How the results depend on the processing

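Of the 9 genes, 3 were called lower, and also 3 with the authors' ratio table, median scaling, detected probes only and trend and robust moderation, and 2 with normexp. It was 1, in each case Slc2a1, with the mean of all probes, without the filter on dim probes, and with 3 other scalings (quantile normalization, cyclic loess and the percentile taken over detected probes). The number called higher was 0, and 1 (Ldha) with normexp and with trend and robust moderation. Leaving out each array in turn gave 0 to 1 genes called lower and 0 higher by limma, with 3 to 4 lower and 0 to 2 higher at an unadjusted p under 0.05. Calls fell over the whole array in these fits, to 0.0095% to 12.7% of all genes, against 17.9% with all 6 arrays. Member probes called higher were 2, against 4 with normexp, 1 with median scaling and no filter on dim probes, and 0 to 1 without each array. Member probes called lower were 3, against 1 under the same 3 scalings and without the filter, and 0 to 2 without each array. Related-list genes called were 27, against 42 with normexp and 0 to 19 without each array, with the 0 when BBMP replicate 2 was left out (50 at an unadjusted p under 0.05). Deviations of same-numbered samples were not positively correlated (r of -0.12, -0.082 and -0.068), though replicate 3 of both groups was high for Ddit4. These correlations cannot settle whether the numbers pair the samples. With the replicate block, limma called 0 of all 31582 genes tested, and so 0 members and 0 list genes, and 0 member probes. At an unadjusted p under 0.05, 2 members were higher and 4 lower. Control rats 1 and 2 were in slide row 2 and the other 4 arrays in row 1. With slide row as a covariate or row 1 alone, limma likewise called 0 of each, with 1 member lower at an unadjusted p under 0.05 in both and 1 higher with the covariate; fewer residual degrees of freedom are part of these fits. Ddit4 then stood at -0.38, and at -0.27 to 0.37 without each array; Adm stood at -0.28 to 0.012. Vegfa stood at 0.16 with the mean of all probes, Kdm2a at 0.090, Kdm5b at 0.046 and Th at -0.049. With normexp Arnt stood at -0.070 and the erythroid marker Slc25a37 at -0.011; normexp moved the median of all genes from 0.049 to -0.062. Calls over all genes were 57.1% higher, against 36.4% with normexp, 35.9% with median scaling, 46.6% with cyclic loess, 48.9% with quantile normalization and 47.2% with no filter. Other causes were not tested.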

Other observations

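Replicate 3 of both groups stood apart for other genes beside Ddit4. Among named genes whose deviations had an SD of at least 0.257 (that of Ddit4 was 0.514), the 8 with deviations from the group means most like those of Ddit4 over the 6 arrays (r of 0.979 to 0.985, a description over points chosen for it) included Cebpd, a stress- and glucocorticoid-induced transcription factor, Apold1, an immediate early gene of endothelium, Rgs1, Ch25h, an oxysterol-forming enzyme, and Cyp4a3, a fatty acid hydroxylase. Cebpd read 1.76, 1.596 and 4.21 in control rats 1, 2 and 3 and 2.01, 1.64 and 5.01 in BBMP rats 1, 2 and 3. Apold1 read 0.124, 0.104 and 0.394 in control rats and 0.0898, 0.0680 and 0.324 in BBMP rats. In both genes replicate 3 was at least 2 times the other rats of its group. The gap was smaller in Caprin1, also among the 8, at 3.81, 3.83 and 5.83 in control rats and 3.11, 2.93 and 5.20 in BBMP rats. All 8 genes were chosen for their likeness to Ddit4 after their values were seen, so their pattern in replicate 3 follows from that choice. What sets replicate 3 apart was not tested.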
